A study of Mus musculus and Homo sapiens with 65 samples.

Results

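The class I and II histone deacetylases are 10 genes, Hdac1 to Hdac10, taken by name from the 32287 gene entries measured in late 2-cell mouse embryos. All 10 were found once in each of 9 RNA-seq libraries. The series holds 65 samples, and the 9 libraries used here fall into 4 groups by their labels. These are 2 libraries of embryos treated with alpha-amanitin, 2 of embryos that received morpholinos directed at Kdm5a and at Kdm5b (Kdm5a+b morpholino), 2 of embryos injected with 5-base mismatch versions of those morpholinos (mismatch control morpholino), and 3 of wild-type embryos. Injection was into zygotes at 0.5 days after conception, the morpholinos carried fluorescein, and embryos were cultured in G1 plus medium to the late 2-cell stage. The dose, the time and the route of alpha-amanitin, the mouse strain and the number of embryos per library were not given in the sources used here. Nothing in the labels says that replicates came from separate collections, so a p-value here measures spread between libraries that may be technical.

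Histone deacetylases remove acetyl groups from lysines of histones and other proteins. The class I enzymes Hdac1, Hdac2, Hdac3 and Hdac8 are mainly nuclear, and Hdac1 and Hdac2 work inside the Sin3, NuRD, CoREST and MiDAC complexes, while Hdac3 works with the NCoR and SMRT co-repressors. The class IIa members Hdac4, Hdac5, Hdac7 and Hdac9 shuttle between nucleus and cytoplasm, held by 14-3-3 proteins and recruited to DNA by MEF2 factors, and the class IIb members are Hdac6, a cytoplasmic tubulin deacetylase, and Hdac10, a polyamine deacetylase. The mouse embryo begins its main wave of transcription at the 2-cell stage, on a store of transcripts laid down in the oocyte. Alpha-amanitin, a mushroom toxin, blocks RNA polymerase II, so the treated embryos address which deacetylase transcripts need that transcription. Kdm5a and Kdm5b are demethylases of histone H3 lysine 4, and their morpholinos address whether deacetylase transcripts depend on them.

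Levels are the authors' deposited FPKM, in which fragments are divided by the length of the transcript and the size of the library. Levels can be set side by side between genes, and each is relative to the rest of its own library. The summed FPKM of all genes lay between 197489 and 210131 in alpha-amanitin libraries and between 216142 and 235763 in the other 7. Depth in reads is unknown, since the files give no counts. In bulk embryos, fewer cells or embryos and less RNA per cell cannot be told apart. Summed FPKM of 7 late 2-cell markers was 3.27 and 4.84 with alpha-amanitin, against 254 to 323 in the injected groups and 232 to 290 in wild type, and that of 5 oocyte genes was 595 and 659 with alpha-amanitin, against 259 to 351 in the other 7 libraries. Summed markers of cumulus (8 genes), sperm (6), blood (7) and oviduct cells (5) stayed at or below 4.94, 5.96, 10.97 and 8.41 FPKM in every library, with 5, 4, 4 and 4 of their genes under 1 FPKM throughout and 1 sperm gene and 2 blood genes listed at 0 throughout. The levels of the genes that the morpholinos target do not check the labels, because a morpholino acts on translation or splicing of the RNA. Kdm5b had 38.1 and 27.6 FPKM with the Kdm5a+b morpholino and 55.3 and 39.6 FPKM with the mismatch control, and Kdm5a had 19.5 and 15.3 FPKM against 12.8 and 9.44 FPKM.

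One member has near-identical relatives in the genome, and the sequences show how close they are. A BLAST search of 1 GENCODE transcript per member against the mouse genome (build GRCm38, which is mm10) found matches outside the gene's own locus of at least 300 aligned bases at 85% identity for Hdac1 only, which had 12 such stretches, and none for the other 9 members. The closest is Gm10093, an Hdac1 copy that the files list as a gene of its own at chr17:78491565-78493541, with 98.7% identity to the aligned part of the 2038-base Hdac1 transcript, 12 mismatches and 13 gap bases. Of the 1989 windows of 50 bases in that transcript, 1441 (72.4%) were found letter for letter in Gm10093 and 0 in Hdac2, the nearest other member, which is 77.0% identical over its aligned part. Coding exon 5 of Hdac1 (chr4:129522963-129523101, minus strand) has the most substitutions against the copy among the coding exons compared. Only exons within a length limit that align to the copy without a gap were compared. It is shown with the matching stretch of Gm10093 (chr17:78491937-78492075, plus strand) and of Hdac2 (chr10:36989150-36989288, plus strand), with capitals at the bases that differ from Hdac1.
Hdac1: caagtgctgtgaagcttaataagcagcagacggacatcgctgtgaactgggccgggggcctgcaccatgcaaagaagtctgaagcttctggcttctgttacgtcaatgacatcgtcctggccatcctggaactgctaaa
Gm10093: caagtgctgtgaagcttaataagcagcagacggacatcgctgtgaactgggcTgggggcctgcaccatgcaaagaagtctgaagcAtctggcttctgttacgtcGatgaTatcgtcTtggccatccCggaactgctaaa
Hdac2: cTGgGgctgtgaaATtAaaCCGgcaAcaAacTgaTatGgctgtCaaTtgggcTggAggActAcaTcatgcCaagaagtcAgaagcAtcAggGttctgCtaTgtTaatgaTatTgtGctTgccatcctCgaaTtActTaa
Within these 139 bases Gm10093 differs from Hdac1 at 6 positions, C53T, T86A, A105G, C110T, C117T and T127C, counted from 1 at the exon's 5′ end with the Hdac1 base first. Hdac2 differs at 37 of them. Reads of Hdac1 and Gm10093 are therefore alike over most of the transcript, how the authors' counting divided them was not given in the sources used here, and each of the 2 levels is uncertain. The other copies matched in the files, Gm7146 and Gm14524, were listed at 0 FPKM in all 9 libraries.

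In wild-type embryos Hdac2 and Hdac1 had the highest levels of the family. Hdac2 had 37.2, 73.8 and 33.2 FPKM and averaged 48.1 ± 22.3 FPKM (SD, n = 3), and Hdac1 had 26.8, 72.0 and 38.0 FPKM and averaged 45.6 ± 23.5 FPKM (SD, n = 3). The ranges of the 2 genes overlap, so their order is within the spread of the libraries. It also depends on how reads were divided between Hdac1 and Gm10093. With both added, the sum was 68.6, 117 and 87.6 FPKM, above Hdac2 in each wild-type library. Hdac6 followed with 6.50, 7.84 and 7.42 FPKM, below every Hdac1 and Hdac2 value and above every value of Hdac4, the next by mean, though Hdac5 reached 7.42 FPKM in wild-type replicate 1, where Hdac6 had 6.50 FPKM. Hdac4 (mean 4.47 FPKM), Hdac9 (4.39), Hdac5 (3.63), Hdac8 (2.26) and Hdac10 (1.79) came next, each overlapping its neighbour in that order. Hdac3 stayed at or below 0.149 FPKM and Hdac7 at or below 0.063 FPKM, both listed at 0 in at least 1 wild-type library. Together Hdac1 and Hdac2 made up 68.2% to 87.4% of the family's summed FPKM in wild type. Of the 90 member values, all had the status OK and 5 lay above the upper bound that their own file gives. They were Hdac1 in both Kdm5a+b morpholino libraries and in mismatch control replicate 1, Hdac5 in mismatch control replicate 1 and Hdac2 in wild-type replicate 2. The bounds were therefore not used as errors.

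**Figure D1:**
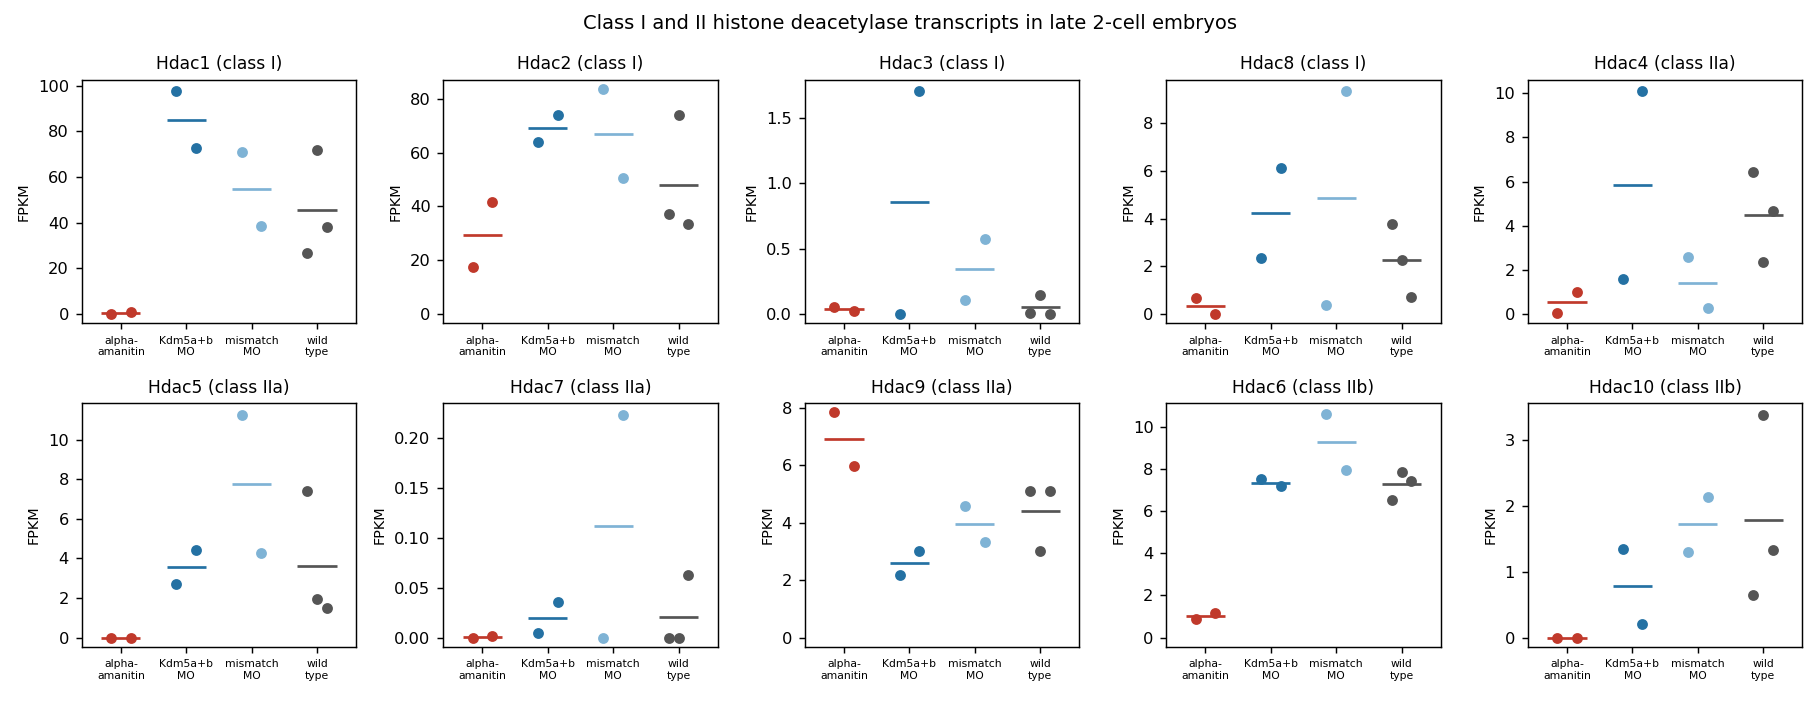
FPKM of each of the 10 genes (y axis, a scale per panel starting near 0) by group (x axis), with 1 point per library and a line at the group mean. Hdac1 and Hdac6 are far lower in both alpha-amanitin libraries than in any other library, while Hdac9 has its 2 highest values there.

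The alpha-amanitin comparison used limma on log2(FPKM + 1) over the 13136 genes with at least 1 FPKM in at least 2 of the 9 libraries, with p-values adjusted by Benjamini-Hochberg over all of them and a call at an adjusted p under 0.05. Alpha-amanitin embryos had less Hdac1, Hdac6 and Hdac5 than wild type, and the other 5 members that could be tested did not pass. Hdac3 and Hdac7 were below the filter on low values. The 3 of 8 called lower stand beside 25.2% of all genes tested, and the 0 of 8 called higher beside 4.32% (limma, with 0 members but 8.12% of genes higher at an unadjusted p under 0.05). Over the 8 members, 7 differences were below 0 and their median was -1.60, against 65.8% of genes below 0 and a median of -0.56 over all genes. Members pass the filter mostly through the groups where they are high, so these summaries describe the 8 and support nothing further. The balance over all genes depends on scaling, since 3306 genes were called lower and 568 higher with FPKM as deposited, while quantile normalization gave 1811 lower and 1738 higher and moved the median of all genes to 0.17.

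Hdac1, a catalytic subunit of Sin3, NuRD and CoREST, was nearly absent from the treated embryos. It had 0.127 and 0.746 FPKM in alpha-amanitin libraries, against 26.8, 72.0 and 38.0 FPKM in wild type. The treated values lie below every one of the other 7 libraries, of which the lowest is 26.8 FPKM. The difference was -4.94 ± 0.45 on the log2(FPKM + 1) scale (SE, 2 against 3 libraries, adjusted p = 2.08e-05, limma), or 30.6-fold lower on that scale, and the call held under each of the 20 alternatives run, between -6.58 and -4.03. Gm10093, the copy whose sequence is shown above, had 0.795 and 0.507 FPKM with alpha-amanitin against 41.8, 44.8 and 49.6 FPKM in wild type, a difference of -4.81 ± 0.28 (adjusted p = 2.28e-06, limma). The FPKM of both entries were also added in each library. A sum evens out the division of shared reads only if each was counted once, and their handling was not given. The sum was 0.922 and 1.25 FPKM with alpha-amanitin against 68.6, 117 and 87.6 FPKM in wild type, a difference of -5.43 ± 0.30 (adjusted p = 1.83e-06, limma).

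Hdac2, which fills the same place in the same complexes, did not pass. It had 17.4 and 41.6 FPKM with alpha-amanitin against 37.2, 73.8 and 33.2 FPKM in wild type, so the groups overlap. The difference was -0.72 ± 0.43 (adjusted p = 0.241, limma), and its 95% interval of -1.68 to 0.24 leaves room for a fall of more than 1 on the log2 scale. It is close to the median of all genes. Set against each other within a library, Hdac1 reached 0.0073 and 0.018 times the FPKM of Hdac2 with alpha-amanitin, against 0.720, 0.976 and 1.14 times in wild type. The log2 ratio, with 1 added to each FPKM, was lower by a difference of -4.21 and the groups did not overlap, but 2 against 3 libraries give only 10 arrangements, and the two-sided exact permutation p of 0.2 is the smallest they can give. Hdac8, the remaining class I member above the filter, had 0.678 and 0.020 FPKM against 3.77, 2.28 and 0.722 FPKM, which did not pass (-1.20 ± 0.82, adjusted p = 0.298, limma).

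**Figure D2:**
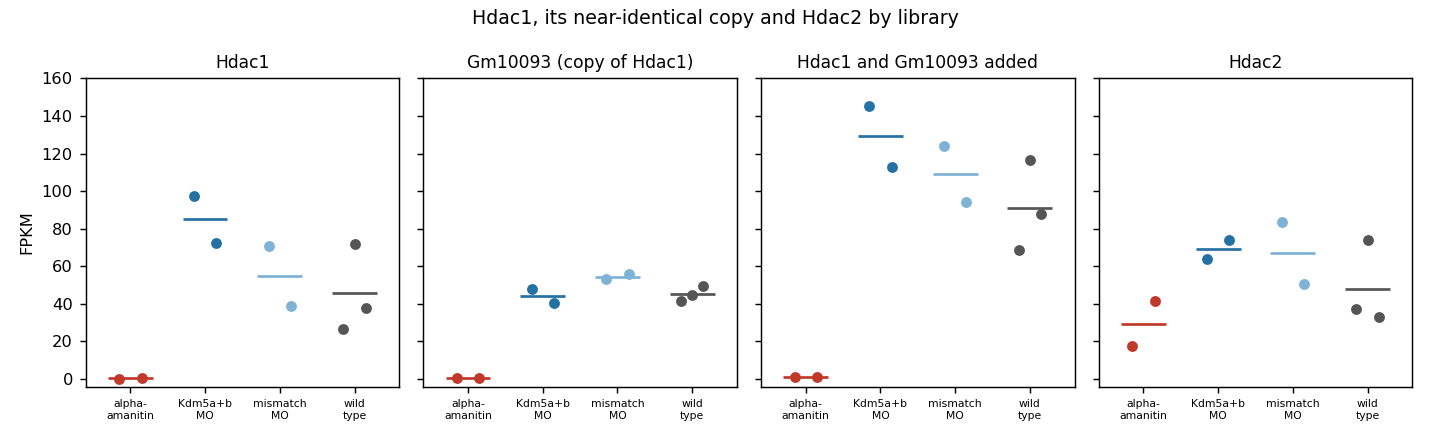
FPKM (y axis, the same in all panels) of Hdac1, its copy Gm10093, their sum and Hdac2 by group (x axis), with 1 point per library and a line at the group mean. Hdac1, the copy and the sum lie at or below 1.25 FPKM in both alpha-amanitin libraries, while Hdac2 there has 17.4 and 41.6 FPKM.

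Of the class IIa members Hdac5, a signal-responsive co-repressor, was the only one to pass. It had a listed FPKM of 0 in each alpha-amanitin library, against 7.42, 1.96 and 1.499 FPKM in wild type, a difference of -1.99 ± 0.62 on the log2(FPKM + 1) scale (adjusted p = 0.0341, limma). That call is fragile, since it ended in 8 of 19 alternatives. The adjusted p of limma was 0.119 and 0.124 without alpha-amanitin replicate 1 and 2, 0.0860 without wild-type replicate 1, 0.0516 and 0.0521 without Kdm5a+b morpholino replicate 1 and 2, 0.118 with no filter, 0.0703 with only the 2 groups compared and 0.0848 after quantile normalization. Hdac4, its close relative, had 0.050 and 1.02 FPKM against 6.41, 2.36 and 4.65 FPKM, below wild type in both libraries but short of the threshold (-1.84 ± 0.73, adjusted p = 0.0809, limma). Hdac7 did not exceed 0.224 FPKM in any of the 9 libraries.

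Hdac9, a class IIa member best known from muscle and immune cells, was the only tested member with a positive difference. It had 7.86 and 5.97 FPKM with alpha-amanitin against 5.09, 3.00 and 5.10 FPKM in wild type. Both treated values lie above all 7 others, although the difference of 0.57 ± 0.43 did not pass (95% interval -0.39 to 1.53, adjusted p = 0.351, limma). After quantile normalization it was 1.47 and passed (adjusted p = 0.0314, limma). In the files Hdac9 spans chr12:34371503-34528889, a shorter stretch than its GENCODE model, so the value covers the transcripts of that stretch.

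In class IIb, Hdac6 was low in treated embryos with little scatter. It had 0.905 and 1.17 FPKM with alpha-amanitin, against 6.50, 7.84 and 7.42 FPKM in wild type, and the lowest of the other 7 libraries had 6.50 FPKM. The difference was -2.02 ± 0.39 (adjusted p = 0.0027, limma), or 4.05-fold lower on the log2(FPKM + 1) scale. Only quantile normalization among the 19 alternatives ended that call (-0.93, adjusted p = 0.0955, limma). Hdac10 likewise had a listed FPKM of 0 in each alpha-amanitin library, against 0.646, 3.39 and 1.33 FPKM in wild type and did not pass (-1.36 ± 0.54, adjusted p = 0.0805, limma). It passed with a pseudocount of 0.1 (adjusted p = 0.0161), with FPKM rescaled to TPM (0.0365) and without wild-type replicate 1 (0.0473), all by limma. Rescaling to TPM raised the values while the added 1 stayed, so it acts in the same direction as the smaller pseudocount.

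**Figure D3:**
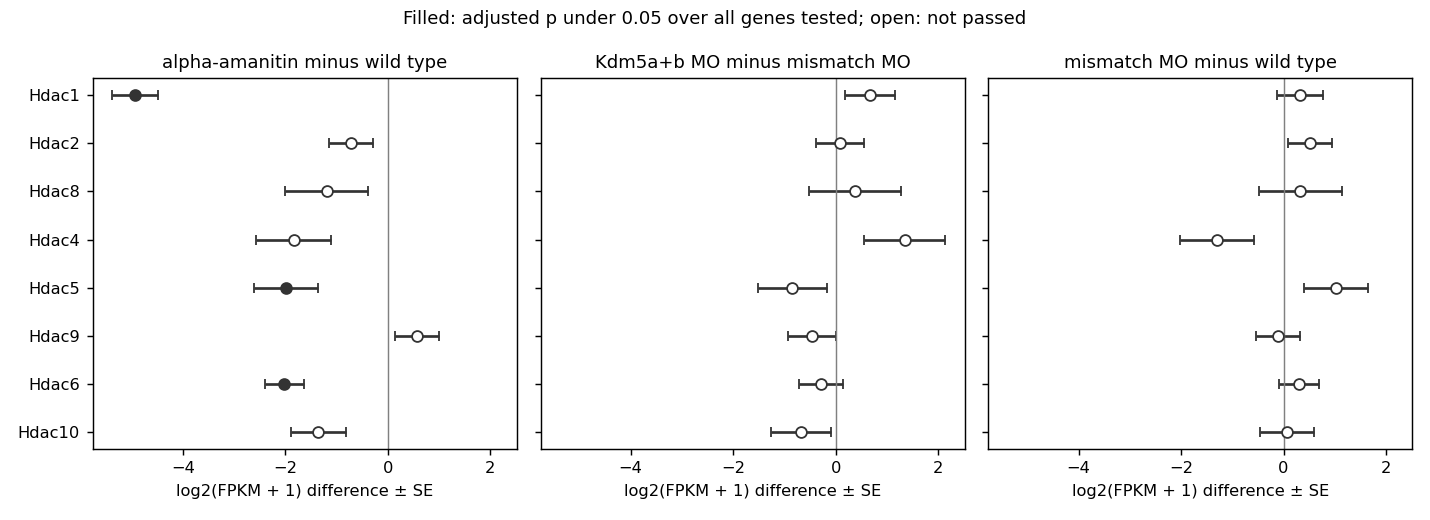
Difference in log2(FPKM + 1) with its SE (x axis) for the 8 members above the filter (y axis) in the 3 comparisons, each titled as the difference it shows. Filled points passed an adjusted p under 0.05, which 3 members did with alpha-amanitin and 0 in the other comparisons.

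The family's make-up differed accordingly. The 10 genes summed to 27.03 and 50.52 FPKM with alpha-amanitin, against 93.8, 167 and 92.0 FPKM in wild type. Hdac1 was 0.469% and 1.48% of that sum in treated embryos and 28.6% to 54.4% in the other 7 libraries. Hdac2 was 64.2% and 82.3% in treated embryos against 35.7% to 45.1% elsewhere, and Hdac9 was 29.1% and 11.8% against 1.21% to 5.54%. These shares count the Hdac1 entry without Gm10093. They describe the libraries without a test, and since they add to a fixed total, a low Hdac1 raises the others. In the order of levels in treated embryos, Hdac2 came first and Hdac9 second, neither overlapping its neighbour, followed by Hdac6.

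**Figure D4:**
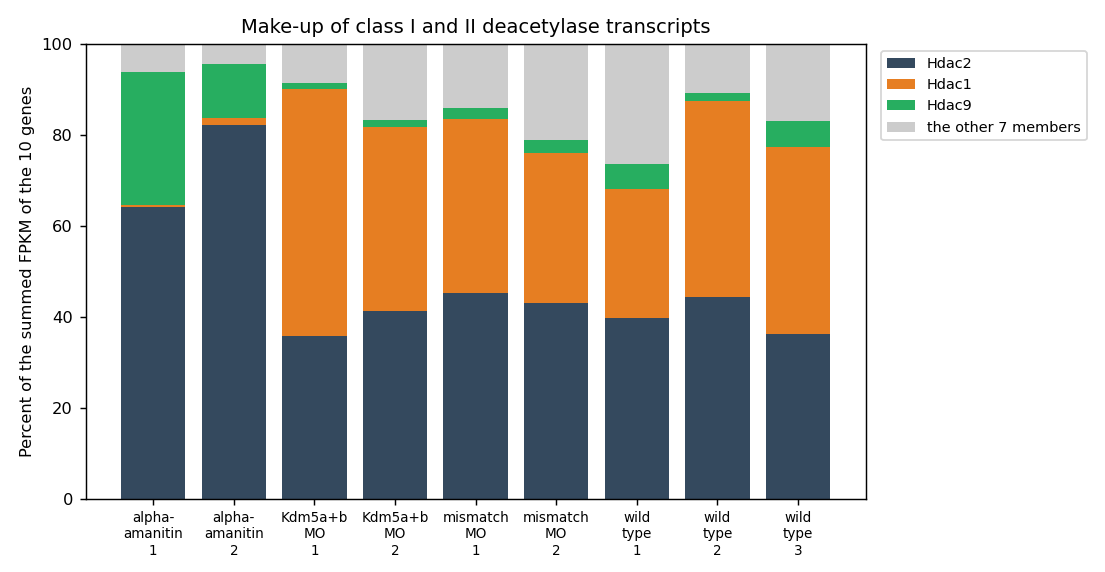
Share of the summed FPKM of the 10 genes (y axis, percent) that is Hdac2, Hdac1, Hdac9 or the other 7 members in each of the 9 libraries (x axis). Hdac1 is between 28.6% and 54.4% in the 7 libraries without alpha-amanitin and at most 1.48% in the 2 with it.

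The promoters of Hdac6, called lower in treated embryos, and Hdac9 are shown to compare their composition. Hdac9 had its own highest values in treated embryos, although its difference did not pass. RefSeq promoter windows (GRCm38.p6, 250 bases before to 50 after the start) were matched for 7 members, Hdac2, Hdac4, Hdac5, Hdac6, Hdac7, Hdac8 and Hdac9, and for genes with several windows the one holding the start in the files was taken. The window of Hdac6 is chrX:7947840-7948139 and that of Hdac9 is chr12:34528840-34529139, both on the minus strand and written 5′ to 3′ along the gene. Capitals mark matches on either strand to 4 motifs, the GC box GGGCGG, the CCAAT box by its own letters, the TATA box as TATAAA and the E box as CACGTG.
Hdac6: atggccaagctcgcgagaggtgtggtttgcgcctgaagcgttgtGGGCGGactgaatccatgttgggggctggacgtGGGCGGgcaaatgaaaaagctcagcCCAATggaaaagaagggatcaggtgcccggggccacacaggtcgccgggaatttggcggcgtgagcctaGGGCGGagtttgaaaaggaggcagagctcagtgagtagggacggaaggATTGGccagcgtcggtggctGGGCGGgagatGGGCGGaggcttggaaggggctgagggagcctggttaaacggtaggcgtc
Hdac9: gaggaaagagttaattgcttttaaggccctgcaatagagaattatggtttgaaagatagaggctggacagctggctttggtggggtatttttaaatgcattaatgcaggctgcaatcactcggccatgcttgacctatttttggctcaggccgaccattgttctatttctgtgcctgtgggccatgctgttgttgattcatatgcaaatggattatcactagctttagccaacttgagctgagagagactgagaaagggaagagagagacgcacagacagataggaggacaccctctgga
The Hdac6 window holds 5 GC boxes, 2 CCAAT boxes and 20 CpG dinucleotides, while the Hdac9 window holds none of the 4 motifs and 3 CpG. In the windows taken, GGGCGG was present in Hdac2 (1), Hdac4 (5), Hdac5 (1) and Hdac6 (5), and in 35.7% of all 32851 windows. CCAAT was present in Hdac4, Hdac5, Hdac6 and Hdac8 and in 37.4% of all windows. Of the windows taken, only that of Hdac8 had a TATA box (13.6% of all windows). Only that of Hdac5 had an E box (7.15% of all windows). In Hdac8 the 2 CCAAT matches overlap on opposite strands. The windows taken had 36 CpG in Hdac2, 32 in Hdac4, 18 in Hdac5, 6 in Hdac7 and 6 in Hdac8, and the median of all windows was 7. Windows not taken differ, since the other one of Hdac9 (chr12:34917046-34917345) holds 1 TATA box and 0 CpG. Those of Hdac7 hold 5, 31 and 35 CpG, and the one with 31 holds 1 GC box. A match is only a description of these letters and was not tested against the levels.

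With the Kdm5a+b morpholino, no member passed against the mismatch control. The test called 0 of 13136 genes in either direction (0% higher and 0% lower, limma), and 418 genes (3.18%) but 0 members had an unadjusted p under 0.05. Hdac1 had 97.7 and 72.5 FPKM with the Kdm5a+b morpholino against 71.0 and 38.7 FPKM with the mismatch control, a difference of 0.67 ± 0.49 with a 95% interval of -0.41 to 1.75. Both morpholino values are above the mismatch values, and the gap between them is small beside the spread in each group. Hdac2 had 64.1 and 74.0 FPKM against 83.7 and 50.3 FPKM, inside the range of the mismatch control (0.08 ± 0.48, 95% interval -0.97 to 1.13). Adding Gm10093, which had 47.8 and 40.3 FPKM against 53.1 and 55.7 FPKM, to Hdac1 brought the difference to 0.24.

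No class II member passed in that comparison either. Hdac4, the member with the largest difference in either direction, had 1.59 and 10.1 FPKM with the Kdm5a+b morpholino against 2.57 and 0.249 FPKM with the mismatch control (1.34 ± 0.79). Hdac5 had 2.70 and 4.43 FPKM against 11.3 and 4.29 FPKM (-0.85 ± 0.68), and in both genes the groups overlap. Hdac6 had 7.52 and 7.18 FPKM against 10.6 and 7.94 FPKM, and Hdac9 had 2.18 and 3.00 FPKM against 4.59 and 3.33 FPKM, with every morpholino value below the mismatch values in both. Those differences were -0.29 ± 0.42 and -0.46 ± 0.47, with 95% intervals of -1.22 to 0.65 and -1.51 to 0.58. Hdac8 had 2.37 and 6.12 FPKM against 0.363 and 9.36 FPKM, and Hdac10 had 1.35 and 0.205 FPKM against 1.30 and 2.14 FPKM. Hdac3 showed its single value above 1 FPKM here, with 0 and 1.71 FPKM against 0.107 and 0.578 FPKM. The 95% intervals of all 8 tested members include 0, and that of Hdac6 is the narrowest of them. They were -0.41 to 3.10 for Hdac4, -1.59 to 2.36 for Hdac8 and -2.35 to 0.66 for Hdac5. These libraries therefore leave room for moderate changes in Hdac6 and for large ones in Hdac4, Hdac8 and Hdac5.

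Injection with the mismatch control gave no call against uninjected wild type either. The test called 0 of 13136 genes (0% in each direction, limma), with 611 genes (4.65%) and 0 members at an unadjusted p under 0.05. Hdac1 had 71.0 and 38.7 FPKM with the mismatch control against 26.8, 72.0 and 38.0 FPKM in wild type (0.32 ± 0.45), and Hdac2 had 83.7 and 50.3 FPKM against 37.2, 73.8 and 33.2 FPKM (0.52 ± 0.43). In both genes the groups overlap. The differences of the 8 members ran between -1.30 ± 0.73 for Hdac4 and 1.02 ± 0.62 for Hdac5, with a median of 0.31 against -0.01 over all genes. The mismatch control libraries serve in this comparison and in the one with the Kdm5a+b morpholino, and the wild-type libraries in this one and in the one with alpha-amanitin, so the comparisons are not independent of each other.

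The deacetylases outside these classes and the partner proteins were described from lists of 72 genes, of which 71 were in the files and 66 could be tested. With alpha-amanitin 21 were called lower and 2 higher, the median difference was -0.55, and 25.2% and 4.32% of all genes were called lower and higher. Of the 23 calls, 10 held under all 19 alternatives and 13 ended under at least 1. The count called lower was 13 without alpha-amanitin replicate 1, with no filter or with only the 2 groups compared, and 10 after quantile normalization. The count called higher was 1 without alpha-amanitin replicate 1, with no filter or with the replicate block, 0 without alpha-amanitin replicate 2 or without the trend, and 4 after quantile normalization, and with 1 library left out it ran between 0 and 3. None was called in the comparisons of the Kdm5a+b morpholino with the mismatch control or of the mismatch control with wild type (limma), where 2 and 1 had an unadjusted p under 0.05.

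Of the NAD-dependent class III sirtuins, 2 of 6 tested were lower, beside 25.2% of all genes. Sirt1, a nuclear deacetylase of histones and transcription factors, had 5.35 and 13.0 FPKM with alpha-amanitin against 61.4, 56.5 and 66.4 FPKM in wild type (-2.72 ± 0.34, adjusted p = 0.000183, limma). Sirt7, a nucleolar sirtuin, had 3.24 and 0.431 FPKM against 5.55, 18.9 and 28.4 FPKM (-2.67 ± 0.64, adjusted p = 0.00972, limma). The Sirt7 call ended in 4 of 19 alternatives, among them without alpha-amanitin replicate 2. Class IV has a single gene, Hdac11, a lysine defatty-acylase, with 1.24 and 0.107 FPKM against 0.031, 1.85 and 0.030 FPKM, which did not pass (0.12 ± 0.54, adjusted p = 0.883, limma). Both groups span low and higher values of Hdac11.

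The complexes that house Hdac1 and Hdac2 gave mixed counts, which stand beside 25.2% of all genes called lower and 4.32% called higher. In Sin3, 7 of 16 tested subunits were lower and 1 was higher. The leading ones were Ing1, a reader of methylated histone H3 lysine 4 with 2.78 and 4.55 FPKM against 31.6, 41.4 and 25.7 FPKM, and the DNA-binding subunit Arid4b with 3.54 and 2.87 FPKM against 16.3, 42.4 and 30.3 FPKM. Their differences were -2.86 ± 0.33 and -2.77 ± 0.42, and those of Arid4a and of the scaffold-binding Sap30 were -2.23 ± 0.51 and -2.16 ± 0.36. In NuRD, 5 of 12 tested subunits were lower and 1 was higher, and Mta2, which binds and activates Hdac1, had 1.68 and 2.72 FPKM against 45.5, 47.2 and 55.7 FPKM (-3.99 ± 0.31, adjusted p = 8.66e-06, limma). Cdk2ap1 followed at -3.39 ± 0.51, and the histone-binding Rbbp4 and Rbbp7, which are also counted in Sin3, at -2.13 ± 0.69 and -1.44 ± 0.27. The Rbbp4 call ended in 12 of 19 alternatives, among them without any single library other than wild-type replicate 2, and the Arid4a call in 3, among them without alpha-amanitin replicate 1. Brms1 of Sin3 and Mta3 of NuRD, also counted as lower, each lost the call in 14 of 19.

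The 2 partners called higher, named after their values were seen, were both constituents of these complexes. Chd4, the ATPase of NuRD, had 65.2 and 62.7 FPKM with alpha-amanitin against 28.4, 36.1 and 25.3 FPKM in wild type (1.09 ± 0.31, adjusted p = 0.0212, limma). Sap130, a Sin3 subunit, had 137 and 155 FPKM against 88.4, 77.5 and 70.5 FPKM (0.88 ± 0.22, adjusted p = 0.0111, limma). In both genes every treated value lies above every wild-type value. The Chd4 call ended in 6 of 19 alternatives. The adjusted p of limma for Chd4 was 0.0876 and 0.0763 without alpha-amanitin replicate 1 and 2, 0.0641 without wild-type replicate 3, 0.0846 with the replicate block, 0.0593 without the trend and 0.0560 with no filter. The Sap130 call ended in 2 of 19, without alpha-amanitin replicate 2 (0.0791, limma) and without the trend (0.0755, limma).

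In CoREST, 3 of 8 tested genes were lower, beside 25.2% of all genes. Rcor2, a scaffold that joins Hdac1 or Hdac2 to the demethylase Kdm1a, had 6.02 and 3.02 FPKM with alpha-amanitin against 17.3, 49.7 and 47.6 FPKM in wild type (-2.74 ± 0.48, adjusted p = 0.00148, limma), and Zmym2 (-1.18 ± 0.33) and Rcor1 (-1.10 ± 0.26) were also called. The Zmym2 call ended in 3 of 19 alternatives, among them without alpha-amanitin replicate 1 or 2. The Rcor1 call ended in 2 of 19, among them without alpha-amanitin replicate 1. Over the 19 alternatives the difference came as near to 0 as -0.33 for Zmym2 and -0.59 for Rcor1. The adjusted p of limma reached 0.498 and 0.127. Of the NCoR and SMRT partners of Hdac3, 1 of 5 was lower, Tbl1x at -1.86 ± 0.59, a call that ended in 8 of 19 alternatives, among them without alpha-amanitin replicate 1 or 2 and without wild-type replicate 2 or 3. Of the MiDAC and MIER partners, 1 of 5 was lower, Mier3 at -0.87 ± 0.27, a call that ended in 11 of 19, among them without alpha-amanitin replicate 1, either Kdm5a+b morpholino replicate or any wild-type replicate. Those last counts are close to or below the share of all genes called lower.

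Among the class IIa partners, 4 of 15 tested were lower, a share close to the 25.2% of all genes called lower. Mef2a, a transcription factor that recruits class IIa deacetylases, had 0.581 and 0.145 FPKM with alpha-amanitin against 26.1, 25.3 and 19.2 FPKM in wild type (-4.18 ± 0.37, adjusted p = 1.87e-05, limma). The 14-3-3 gene Ywhaq had 4.76 and 3.52 FPKM against 17.2, 31.6 and 19.9 FPKM (-2.18 ± 0.36, adjusted p = 0.00105, limma). Sfn, another 14-3-3 gene, and Prkd2, a kinase that sends class IIa enzymes out of the nucleus, were at -1.91 ± 0.66 and -1.38 ± 0.47, and these calls ended in 15 and 14 of 19 alternatives. Sfn lost its call without any single library other than wild-type replicate 1, and Prkd2 without any other than wild-type replicate 3.

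**Figure D5:**
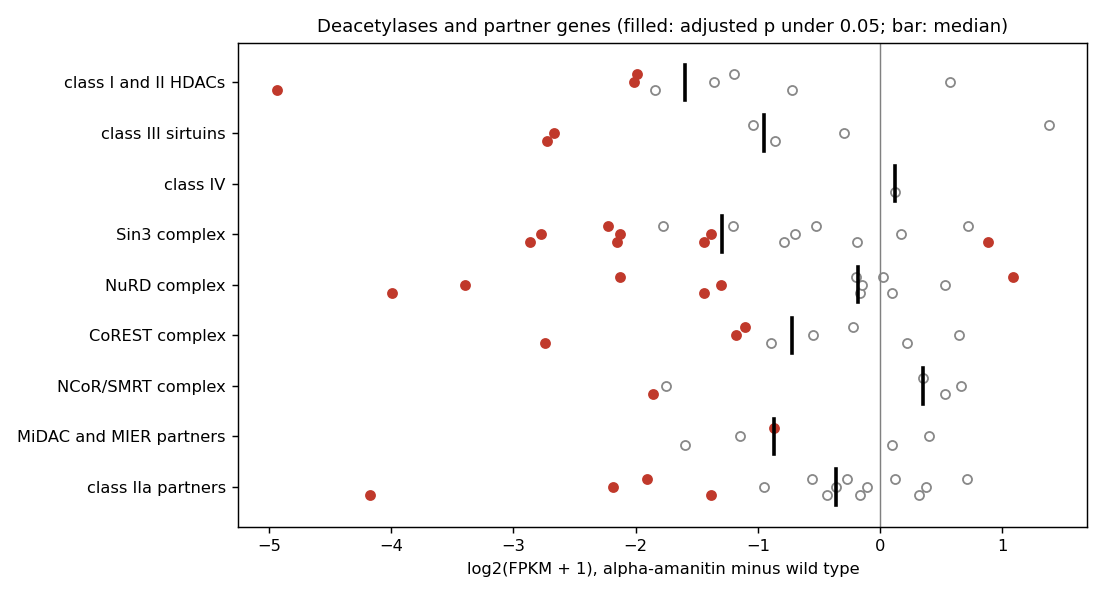
Difference in log2(FPKM + 1), alpha-amanitin minus wild type (x axis), for the 8 tested class I and II deacetylases and for the tested genes of each partner list (y axis), with 1 point per gene, filled where the adjusted p is under 0.05, and a bar at the list's median. Hdac1 at -4.94 lies furthest left of all genes drawn, followed by Mef2a at -4.18 and Mta2 at -3.99.

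Across the 9 libraries, the genes whose log2(FPKM + 1) was most like that of Hdac2, whose wild-type mean was the highest of class I although its range overlaps that of Hdac1, were Kpna4 (Pearson r 0.965), Lime1 (0.955) and Suox (0.954). For Hdac6, whose wild-type mean was the highest of class II, they were Rfwd3 (0.995), CTNND1 (0.994) and Pabpc1 (0.993). The 9 points fall into the 4 groups of libraries. For Hdac6 and the genes named with it, both alpha-amanitin libraries lay below the other 7. For Hdac2, Kpna4, Lime1 and Suox they did not, since alpha-amanitin replicate 2 lay above some wild-type values. All these genes were picked as the highest of 13136, so the values describe a likeness only. Hdac1 and Hdac6 had an r of 0.97 with each other, and Hdac9 had negative ones with Hdac1 (-0.83), Hdac2 (-0.78) and Hdac6 (-0.71), on the same 9 libraries. Of genes that overlap a member in the files, Gm14858 shares 80860 bases with Hdac8 and did not exceed 0.535 FPKM, and Slc48a1 shares 29 bases with Hdac7. Whether the counting used strand was not given in the sources used here.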

How the data were processed

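RNA of late 2-cell mouse embryos was extracted with an RNeasy Micro kit and sequenced after TruSeq library preparation, per the labels' protocols. Per the submitters' processing notes, the series used BWA, Picard, Cufflinks, Trimmomatic, Bismark 12.5 and SAMtools, with no roles given, and build mm10. For RNA, an aligner and a gene annotation release were not named in these notes. The authors deposited FPKM per gene in Cufflinks layout, per the file headers, with bounds and a status. Between 0 and 6 estimates per library had the status FAIL and were treated as missing.

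FPKM are not counts, so log2(FPKM + 1) was tested with limma 3.58.1 in R 4.3.3 (group as the only term over 9 libraries, 5 residual degrees of freedom, moderated with a trend, two-sided, Benjamini-Hochberg adjusted), on genes with at least 1 FPKM in at least 2 libraries. The method was tested on simulated data. A log2 difference on this scale understates changes of low genes. Copies were sought with BLAST+ 2.17.0 on GENCODE M21 transcripts and aligned with Biopython 1.88. Named were all members, up to 4 called genes per partner list by size of change, overlapping genes and copies. The members and lists were chosen with earlier results of these data known. Alternatives were another pseudocount, other filters, TPM, quantile normalization, a replicate block, other limma settings, each library left out, and, added after the data were seen, failed estimates kept at 0 and Hdac1 with Gm10093 added. The other samples of the series were not analysed here.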

Additional observations from a re-analysis of the deposited data

How the results depend on the processing

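Across the alternatives, Hdac1 kept its call with alpha-amanitin, while the calls of Hdac5 and Hdac6 ended as given above, and no member was called against the mismatch control or between the mismatch control and wild type. With alpha-amanitin, quantile normalization gave 1738 genes higher and 1811 lower, with 1 member higher (Hdac9) and 1 lower (Hdac1). Genes called higher were 341 with only the 2 groups compared and 376 with the replicate block, and 304 to 510 with 1 library left out, lowest without alpha-amanitin replicate 2 and 372 without replicate 1. With the Kdm5a+b morpholino, no filter gave 17 genes higher and 10 lower, and wild type in place of the mismatch control gave 1 higher. The mismatch control against wild type gave 11 higher with no filter and 0 to 1 with 1 library left out (1 without wild-type replicate 2). The cause of these moves was not tested.

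Replicate numbers are shared between groups by label only. Deviations of same-numbered libraries correlated between -0.048 and 0.047, so they were not treated as pairs, and the block moved 2 counts by more than 1.5 times, the genes called higher with alpha-amanitin (376) and the partner genes called higher (1).

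Signs that turned round all belong to differences that passed neither way. For the mismatch control against wild type, they were Hdac10 at -0.00086 and Hdac8 at -0.073 with the replicate block. With 1 library left out, the ranges were -0.11 to 0.75 for Hdac1, -1.14 to 1.79 for Hdac8, -0.31 to 0.079 for Hdac9 and -0.25 to 0.45 for Hdac10. For the Kdm5a+b morpholino they were -0.28 to 0.44 for Hdac2 and -1.08 to 1.84 for Hdac8, and wild type in place of the mismatch control gave 0.18 for Hdac5 and 0.019 for Hdac6. Hdac11 with alpha-amanitin was -0.12 with the replicate block and -0.39 to 0.63 with 1 library left out. The difference in the log2 ratio of Hdac1 to Hdac2 lay between -5.84 and -3.65. Leaving out 1 of 2 libraries leaves a lone library that is assumed to vary like the other groups, and the depth of all libraries is unknown.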
